A study of Mus musculus with 2 samples.

Results

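Krüppel-like factors (KLFs) are transcription factors that bind CACCC and GC-box DNA through zinc fingers at their carboxy terminus. Their levels were followed here for 4 members, Klf2, Klf3, Klf6 and Klf13, taken by name from the 16789 gene symbols of a single-cell count matrix of mouse natural killer (NK) cells. The mice were C57BL/6, aged 12 weeks, and carried subcutaneous tumours of MC38, a mouse colon carcinoma line. They ate ad libitum or followed a cyclic fasting diet. The tag list names 10 populations, each marked with its own hashtag antibody: naive, ad libitum, fasted and refed spleen, and ad libitum, fasted and refed bone marrow and tumour. What naive stands for (a mouse without a tumour, for example), the time of refeeding and the number of mice behind each tag are stated nowhere in the labels or tag list. Cells were sorted as Lineage- NK1.1+ CD49b+, tumours after digestion with collagenase at 37 degrees and the other tissues without it, and all were pooled on 1 lane. Each population is therefore 1 sample, with no replicate, so no test was made and no p-value is given.

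In lymphocytes KLF2 is known to maintain quiescence and to drive genes of tissue exit such as S1pr1. KLF3 is mainly a repressor that recruits CtBP. KLF6 is a widely expressed factor induced by stress and stimulation. KLF13 binds the promoter of the chemokine gene Ccl5 in T cells and recruits Sin3a.

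Of the 7479 singlet cells, 207 T cell-like and 79 monocyte or macrophage-like cells were left out, and 7193 remained. The populations held 43 to 1765 cells, 546428 to 8656406 unique molecular identifiers (UMIs, each standing for 1 captured molecule) and a median of 3458 to 7765.5 UMIs per cell. The smallest was ad libitum tumour, whose deepest cell held 13.7% of its UMIs and whose 5 deepest cells held 42.7%. NK cell markers summed higher than those of any other type. All 10 NK markers were detected in every population, with a summed level of 11378 to 28137 UMIs per 1000000 UMIs of all genes (CPM). T cell markers summed to 36.4 to 143 CPM, with Cd3d, Cd3g and Trac detected in every population and Cd4 at 0 in 9 of 10. Dendritic cell markers summed to 166 to 375 CPM, B cell markers to 84.3 to 165 and markers of tumour epithelium to 0.8 to 7.3. Most of the dendritic cell sum was Cst3 (135 to 298 CPM), with Clec9a at 0 in all 10 populations. The B cell sum was nearly all Ighm (83.2 to 165 CPM), with Ms4a1 and Pax5 at 0 in all 10. The cells kept include a cluster of 78 with Csf1r, a monocyte or macrophage marker, among its top genes.

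The upstream sequences are shown first because they are where the 4 genes can be compared with one another letter by letter. Each is the 110 bases that end just before the gene's most upstream annotated start, from RefSeq on GRCm38.p6, written 5′ to 3′ on the gene's strand. Capitals mark CACCC, the core of a KLF site, GGGCGG, the GC box, on either strand, and in Klf2 a match to the MEF2 motif. The windows are chr8:72318923-72319032 (plus strand) for Klf2, chr5:64803278-64803387 (plus) for Klf3, chr13:5861372-5861481 (plus) for Klf6 and chr7:63938916-63939025 (minus) for Klf13.
Klf2: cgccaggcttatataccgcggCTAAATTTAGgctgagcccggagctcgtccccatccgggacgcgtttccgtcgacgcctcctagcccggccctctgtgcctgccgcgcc
Klf3: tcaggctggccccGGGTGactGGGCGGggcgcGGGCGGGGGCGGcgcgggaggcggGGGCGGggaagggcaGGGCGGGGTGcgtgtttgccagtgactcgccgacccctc
Klf6: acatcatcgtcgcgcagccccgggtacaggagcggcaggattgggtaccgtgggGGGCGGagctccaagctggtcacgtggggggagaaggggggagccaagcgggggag
Klf13: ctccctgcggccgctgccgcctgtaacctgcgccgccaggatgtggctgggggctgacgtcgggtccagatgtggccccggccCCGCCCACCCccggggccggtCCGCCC

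Over the 250 bases before the RefSeq start, both strands, Klf3 held 5 matches to CACCC and 6 to GGGCGG, more than the other members. Klf2 held 1 and 2, Klf6 held 0 and 1, and Klf13 held 1 and 3; matches of these motifs can overlap. Such short motifs are common: of 32851 promoters read the same way, 52.0% held CACCC and 32.7% held GGGCGG. Only Klf2 among the members held the MEF2 motif, CTAAATTTAG at 118 to 109 bases before the RefSeq start, which lies 29 bases beyond the end of the printed window. The motif was in 2.92% of promoters. MEF2 proteins are the known link from the kinase ERK5 to Klf2. The FOXO motif GTAAACA was in none of the 4 windows and in 3.17% of promoters. A match is a run of letters and not a measured site.

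Klf2 was highest in spleen. Its level was 1094 CPM in naive, 1110.2 in ad libitum, 1159.6 in fasted and 941 in refed spleen, 419, 446 and 388 in ad libitum, fasted and refed bone marrow, and 178, 621 and 254 in the same tumour populations. The 95% Poisson intervals, here and below covering counting error only and not the spread between mice, were 1061 to 1128, 1088 to 1133, 1131 to 1189 and 919 to 964 in spleen. No spleen population overlapped one of another tissue, and the naive, ad libitum and fasted spleen intervals overlapped their neighbours in the order. The 3 bone marrow intervals overlapped in sequence, while the 3 tumour populations did not overlap, with fasted above the bone marrow and the other two below it.

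Klf3 was also highest in spleen and was lowest in tumour. It was at 127, 121, 129 and 104 CPM in naive, ad libitum, fasted and refed spleen, at 37.6, 51.7 and 32.2 in ad libitum, fasted and refed bone marrow, and at 14.6, 18.9 and 4.16 in tumour. The tumour values rest on 8, 109 and 5 UMIs. The spleen intervals lay above all others. Ad libitum tumour, at 6.32 to 28.8 CPM, overlapped both other tumour populations and also refed bone marrow, at 25.5 to 40.0 CPM.

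Klf6 was ordered differently. Its highest level was in fasted tumour, 304 CPM, apart from all other populations. Spleen held 193, 208, 191 and 178 CPM in naive, ad libitum, fasted and refed cells, and ad libitum and refed tumour held 179 and 185, within the spleen range. Bone marrow was lowest, at 115, 146 and 89.4 in ad libitum, fasted and refed cells.

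Klf13 was highest in the fasted population of each tissue, as were Klf2 and Klf3. Spleen held 164 CPM in naive, 165 in ad libitum, 200.1 in fasted and 145 in refed cells. Bone marrow held 115, 193 and 102 CPM, and tumour 49.4, 111 and 56.6, in ad libitum, fasted and refed cells. Fasted bone marrow overlapped fasted spleen, and the 2 lowest populations, refed and ad libitum tumour, overlapped each other.

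**Figure D1:**
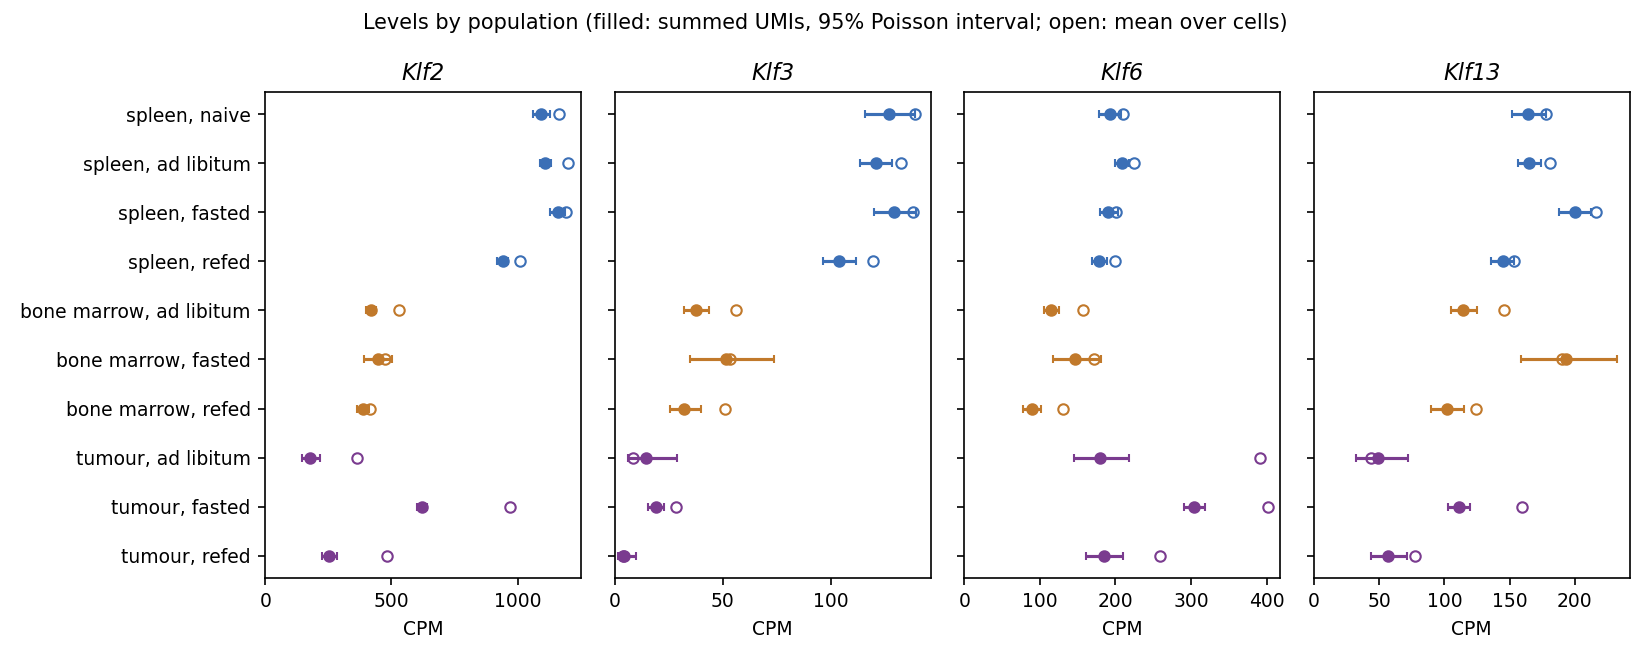
Level of Klf2, Klf3, Klf6 and Klf13 in each of the 10 hashed populations, in CPM on separate axes that start at 0. Filled points are summed UMIs with exact 95% Poisson intervals for counting error, and open points are means over cells. Klf2 and Klf3 are highest in the 4 spleen populations, whereas Klf6 is highest in fasted tumour at 304 CPM.

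The balance of these factors differed between tissues. UMIs were not scaled by gene length, so levels of 2 genes are compared only as the same ratio across populations. There were 5.28 to 6.08 Klf2 UMIs for each Klf6 UMI in spleen, 3.05 to 4.34 in bone marrow, and 0.990 (0.740 to 1.32), 2.04 and 1.37 in ad libitum, fasted and refed tumour. Of the UMIs of the 15 KLF genes in the matrix, Klf6 held 10.1 to 11.9% in spleen and 25.5 to 34.5% in tumour, and Klf2 held 61.7 to 64.0% and 34.2 to 51.9%. All KLF genes together came to 1517 to 1880.9 CPM in spleen, 728 to 981 in bone marrow, and 520, 1196 and 603 in ad libitum, fasted and refed tumour.

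Ratios between populations are given as log2 of CPM plus 5, with a 95% conditional binomial interval, and a gene is called past the fold at an absolute value of at least 0.5. In ad libitum mice the bone marrow level of all 4 members lay below the spleen level past this fold, against 22.9% of measured genes (those at 20 CPM or more in either population) past it in either direction and 10.8% downward. The ratios were -1.39 (-1.47 to -1.32) for Klf2, -1.56 (-1.77 to -1.35) for Klf3, -0.83 (-0.97 to -0.70) for Klf6 and -0.51 (-0.65 to -0.37) for Klf13. In refed mice 3 members passed, against 21.8% of genes, with Klf13 just inside the fold at -0.49. In fasted mice Klf2 (-1.37) and Klf3 (-1.24) passed, against 19.7% of genes, and Klf6 (-0.37) and Klf13 (-0.05) did not. Among deposited clusters with at least 30 cells in both ad libitum populations, Klf2 and Klf3 were lower in bone marrow in 5 of 5, Klf2 by -1.25 to -0.43, Klf6 in 4 of 5 and Klf13 in 3 of 5.

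Several measures moved with these differences. Bone marrow cells were deeper, with a median of 6846 UMIs in ad libitum mice against 4199 in spleen, and 10 dividing-cell genes summed to 2146 against 405 CPM. Genes of mature NK cells were past the fold downward for 8 of 8. Of the quiescence and FOXO-linked genes, 7 of 11 measured were lower past the fold and 0 higher, with a median of -0.80. Of all measured genes 10.8% were lower past the fold in this comparison. The part of these measures in the KLF levels was not tested.

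In tumour, the members split. Compared with fasted spleen, fasted tumour held less Klf3 (-2.49, -2.73 to -2.24), less Klf2 (-0.90, -0.95 to -0.84), less Klf13 (-0.82, -0.96 to -0.68) and more Klf6 (0.66, 0.55 to 0.77). All 4 were past the fold, but so were 41.1% of measured genes, with a median over all genes of -0.23. Among those genes Klf3 stood at percentile 0.304 and Klf6 at 90.4. In ad libitum mice Klf2 (-2.61, -2.91 to -2.33), Klf3 (-2.68, -3.48 to -1.89) and Klf13 (-1.64, -2.18 to -1.14) were lower in tumour than in spleen and Klf6 was not past the fold (-0.21, -0.51 to 0.08), against 49.2% of genes past it. In refed mice the same 3 passed, with Klf3 at -3.57 (-4.10 to -2.88), and Klf6 was at 0.05, against 44.6% of genes.

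Against bone marrow, Klf6 was higher in tumour in each feeding state: 0.62 (0.30 to 0.93) in ad libitum, 1.03 (0.73 to 1.35) in fasted and 1.01 (0.74 to 1.27) in refed mice. Klf3 was lower in each, at -1.12, -1.24 and -2.02, and so was Klf13, at -1.14, -0.77 and -0.79. Klf2 was lower in ad libitum (-1.22) and refed (-0.60) tumour and higher in fasted tumour, where 0.47 did not reach the fold. The refed Klf2 ratio turned to 0.21 with the same weight per cell, 0.08 with cells thinned to 1500 UMIs and 0.52 in cells of 3000 to 6000 UMIs, and the fasted Klf13 ratio to 0.03 in that range. The members past the fold numbered 4, 3 and 4, beside 42.0%, 41.8% and 37.9% of measured genes.

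All 4 members were lowest per UMI in the deepest cells. With fasted tumour cells put in 3 equal groups by depth, of 3146, 5302.5 and 9742 median UMIs, Klf2 was at 1620.1, 1059 and 258 CPM. Klf6 was at 517, 452 and 207 CPM, Klf3 at 52.4, 21.1 and 11.5, and Klf13 at 205, 178 and 67.0. In ad libitum spleen, with medians of 2912.5, 4198 and 6712 UMIs, the slope was shallower, and Klf2 was at 1408, 1325 and 897 CPM. In ad libitum bone marrow Klf2 was at 745, 569 and 301 CPM in groups with medians of 2969.5, 6846 and 14624 UMIs.

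**Figure D2:**
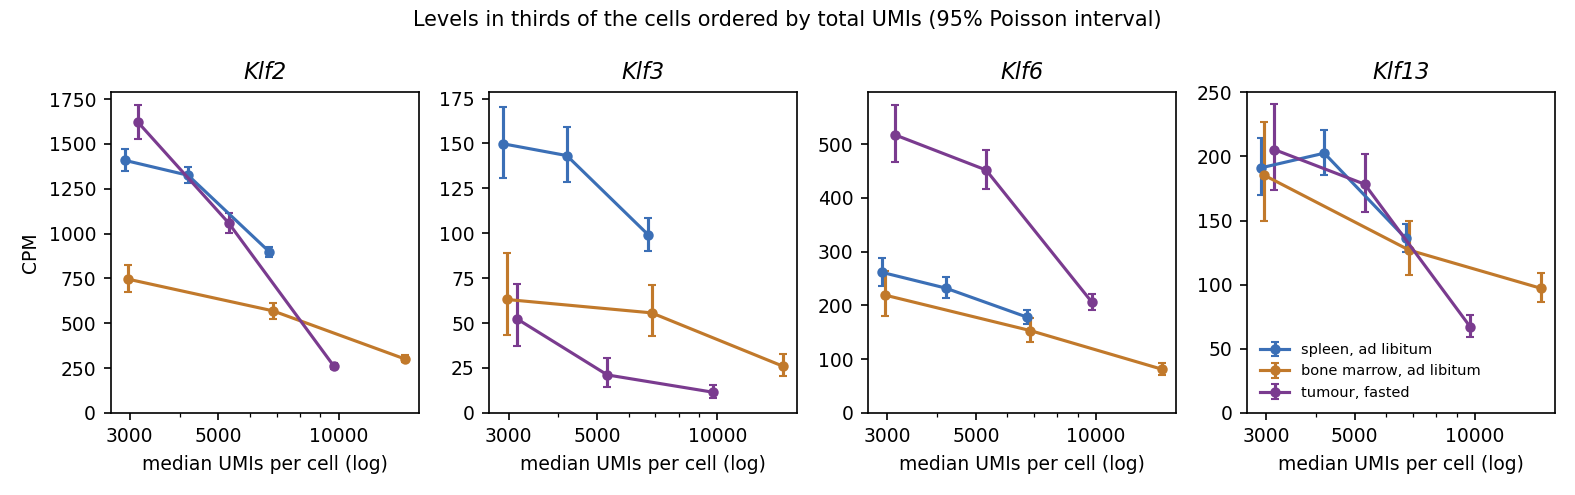
Level of each member in CPM, with 95% Poisson intervals, in 3 equal groups of cells ordered by UMIs per cell, against the median UMIs of the group on a log axis, for ad libitum spleen, ad libitum bone marrow and fasted tumour. The deepest group is the lowest on every line, and Klf6 in fasted tumour runs from 517 to 207 CPM.

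Levels were also read in cells of 3000 to 6000 UMIs alone, a range chosen after these values were seen. There Klf2 in fasted tumour was not below fasted spleen, at 1391 against 1231 CPM (log2 ratio 0.18, 0.10 to 0.25). Klf13 was at 187 against 199 CPM (-0.09, -0.29 to 0.11). Klf3 stayed lower, at 30.8 against 122 CPM (-1.83, -2.23 to -1.44), and Klf6 higher, at 510 against 187 CPM (1.42, 1.27 to 1.57). With the depth matched in this way Klf6 was higher in tumour than in spleen in refed mice too, at 446 against 190.2 CPM (1.21, 0.71 to 1.67; 18 tumour cells). In ad libitum mice it was at 785 against 228 CPM (1.76, 0.89 to 2.51), from 5 tumour cells. Ad libitum bone marrow remained below spleen for Klf2 (-0.70, -0.84 to -0.56) and Klf3 (-1.03, -1.50 to -0.58), whereas Klf6 was at -0.29 (-0.58 to -0.01) and Klf13 at -0.14 (-0.45 to 0.15).

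Only 2 deposited clusters held at least 30 cells of both fasted tumour and fasted spleen. In them Klf6 was higher in tumour by 1.53 (1.16 to 1.88) and 0.47 (-0.21 to 1.13), and Klf3 lower at -1.73 (-2.99 to -0.61) and -1.43 (-2.86 to -0.18). Klf2 was lower in tumour in both, at -0.22 (-0.46 to 0.01) and -0.37 (-0.72 to -0.03). With equal weight for each of 11 clusters with at least 5 cells in both populations, Klf2 was at -0.82. Klf13, lower in tumour over all cells, was at 0.21 and 0.38 in these clusters, with intervals that include 0.

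Immediate early genes are switched on within minutes by stimulation or by tissue digestion. The summed level of 16 of them was 4062 to 4496 CPM in spleen, 2954 to 3396 in bone marrow, and 4352, 7056 and 5051 in ad libitum, fasted and refed tumour. As for Klf6, this sum was highest in fasted tumour and lowest in bone marrow. Within tissues the order could differ. From ad libitum to fasted spleen the sum rose from 4363 to 4496 CPM, whereas Klf6 fell from 208 to 191 CPM. Refed against ad libitum bone marrow held a sum of 3035 against 2954 CPM, with Klf6 at 89.4 against 115 CPM. From fasted spleen to fasted tumour 8 of 14 measured were higher past the fold and 0 lower, against 41.1% of all measured genes in either direction and 12.6% upward, with Atf3 at 2.54, Nr4a1 at 2.44 and Dusp1 at 1.66. Their part in the Klf6 level was not tested, and only the tumours were digested with enzyme, so tissue and preparation cannot be told apart.

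Within spleen, feeding moved the members little. From ad libitum to fasted, Klf13 had the largest ratio of the 4, 0.27 (0.16 to 0.38), which is at percentile 91.3 of measured genes. Klf2 was at 0.06 (0.02 to 0.11), Klf3 at 0.09 (-0.04 to 0.23) and Klf6 at -0.12 (-0.23 to -0.01). None of the 4 was past the fold, against 2.89% of genes. Klf13 was higher in fasted cells in 8 of 8 deposited clusters with at least 30 cells in both populations, by 0.02 to 0.72. The interval left out 0 in cluster 1 alone (0.48, 0.24 to 0.71), and that of the highest value ran from -0.12 to 1.57. In cells of 3000 to 6000 UMIs the Klf13 ratio was 0.05 (-0.10 to 0.20), with 199 against 192 CPM. With equal weight for each cluster of at least 5 cells in both populations the ratios were 0.58 for Klf13 and 0.36 for Klf6. In the 8 clusters with at least 30 cells, however, Klf6 was lower in fasted cells in 5, with a median of -0.12. Fasted spleen was also the shallowest population, with a median of 3458 UMIs, and the part of depth in the Klf13 ratio was not tested.

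From fasted to refed spleen all 4 ratios were below 0 and none was past the fold, against 4.1% of genes. Klf13 was at -0.46 (-0.58 to -0.33), percentile 3.05, followed by Klf2 at -0.30 (-0.35 to -0.25), Klf3 at -0.30 (-0.45 to -0.16) and Klf6 at -0.09 (-0.21 to 0.02). This comparison shares the fasted population with the one before. In cells of 3000 to 6000 UMIs Klf13 was at -0.35 (-0.52 to -0.18) and Klf2 at -0.17 (-0.23 to -0.10). Klf2 was lower after refeeding in 8 of 8 clusters, by -0.40 to -0.09, and Klf13 in 7 of 8.

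Refed spleen also lay below ad libitum spleen for each member, with ratios of -0.24 (-0.28 to -0.19) for Klf2, -0.21 (-0.34 to -0.08) for Klf3, -0.22 (-0.32 to -0.12) for Klf6 and -0.18 (-0.30 to -0.07) for Klf13. None was past the fold, against 0.453% of genes. The 2 populations were of similar depth, with medians of 4369 and 4199 UMIs, and within 3000 to 6000 UMIs the 4 ratios were -0.30 to -0.23. Within clusters the difference was smaller: Klf2 was lower in 6 of 8 and each of the others in 5 of 8, and with equal weight per cluster the ratios were -0.08, -0.12, -0.02 and -0.02. Naive and ad libitum spleen were closest of all: the ratios of ad libitum over naive were 0.02, -0.07, 0.11 and 0.01 for Klf2, Klf3, Klf6 and Klf13, none past the fold, against 0.52% of genes.

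In bone marrow 1 member was past the fold upward from ad libitum to fasted, against 30.8% of measured genes in either direction and 14.7% upward. It was Klf13, at 0.73 (0.43 to 1.01), while Klf3 was at 0.41 (-0.14 to 0.93), Klf6 at 0.34 (0.00 to 0.66) and Klf2 at 0.09 (-0.10 to 0.27). Within the 2 clusters with enough cells Klf13 was at 0.72 and 0.77. From fasted to refed 3 were lower past the fold, against 34.0% of genes in either direction and 18.9% downward: Klf13 at -0.89 (-1.21 to -0.57), Klf6 at -0.68 (-1.03 to -0.32) and Klf3 at -0.61 (-1.17 to -0.02). Klf2 was at -0.20 (-0.40 to 0.00). The number past the fold dropped to 1 with the same weight per cell, with other cell types kept and in cells of 3000 to 6000 UMIs, and to 0 with thinned cells. Between refed and ad libitum bone marrow none passed, against 1.9% of genes, with Klf6 furthest from 0 at -0.35 (-0.57 to -0.13). Depth moved with these values, since the median was 4310.5 UMIs in the 116 fasted cells and 6846 and 7231.5 in ad libitum and refed cells. In cells of 3000 to 6000 UMIs the fasted to ad libitum ratio of Klf13 was 0.07 (-0.53 to 0.64) and that of Klf2 was -0.68 (-1.03 to -0.35), from 38 fasted cells. The refed over ad libitum ratios in that range were -0.82 (-1.13 to -0.52) for Klf2 and -1.19 (-1.93 to -0.51) for Klf6, from 52 refed cells. Those of Klf3 and Klf13 had intervals that include 0.

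In tumour 3 members were higher in fasted than in ad libitum cells past the fold, against 26.8% of measured genes in either direction and 14.4% upward. Klf2 was at 1.78 (1.49 to 2.08), percentile 99.8, Klf13 at 1.09 (0.58 to 1.64), percentile 98.3, and Klf6 at 0.75 (0.46 to 1.05), percentile 93.4. Klf3 was at 0.29 (-0.54 to 1.11). The ad libitum side is 43 cells, and 1 of them held 40 of the 97 Klf2 UMIs. With each cell given the same weight the Klf2 levels were 363 CPM in ad libitum, 971 in fasted and 481 in refed tumour, whereas the Klf6 levels were 391, 402 and 258. Over 3000 to 6000 UMIs Klf2 kept its direction (1.17, 0.33 to 2.16) and Klf6 turned (-0.62, -1.37 to 0.25), from 5 ad libitum cells.

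From fasted to refed tumour all 4 members were lower past the fold, against 16.1% of genes in either direction and 8.04% downward. Klf3 was at -1.39 (-1.95 to -0.66), Klf2 at -1.28 (-1.45 to -1.11), Klf13 at -0.91 (-1.26 to -0.58) and Klf6 at -0.71 (-0.91 to -0.51). Refed cells were deeper, with a median of 7765.5 against 5302.5 UMIs. In cells of 3000 to 6000 UMIs, 18 of them refed, Klf2 was at -1.11 (-1.52 to -0.73) and Klf13 at -1.62 (-3.04 to -0.45), whereas Klf6 was inside the fold at -0.19 (-0.69 to 0.27) and Klf3 had no UMI in the refed cells. From ad libitum to refed, Klf2 was higher at 0.50 (0.18 to 0.84) and Klf3 lower at -1.10 (-1.97 to -0.01), 2 members past the fold against 20.3% of genes, the latter from 8 and 5 UMIs. In cells of 3000 to 6000 UMIs this Klf2 ratio was 0.05 (-0.89 to 1.12), from 18 refed and 5 ad libitum cells. With equal cluster weights it was 0.04, from 2 clusters.

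**Figure D3:**
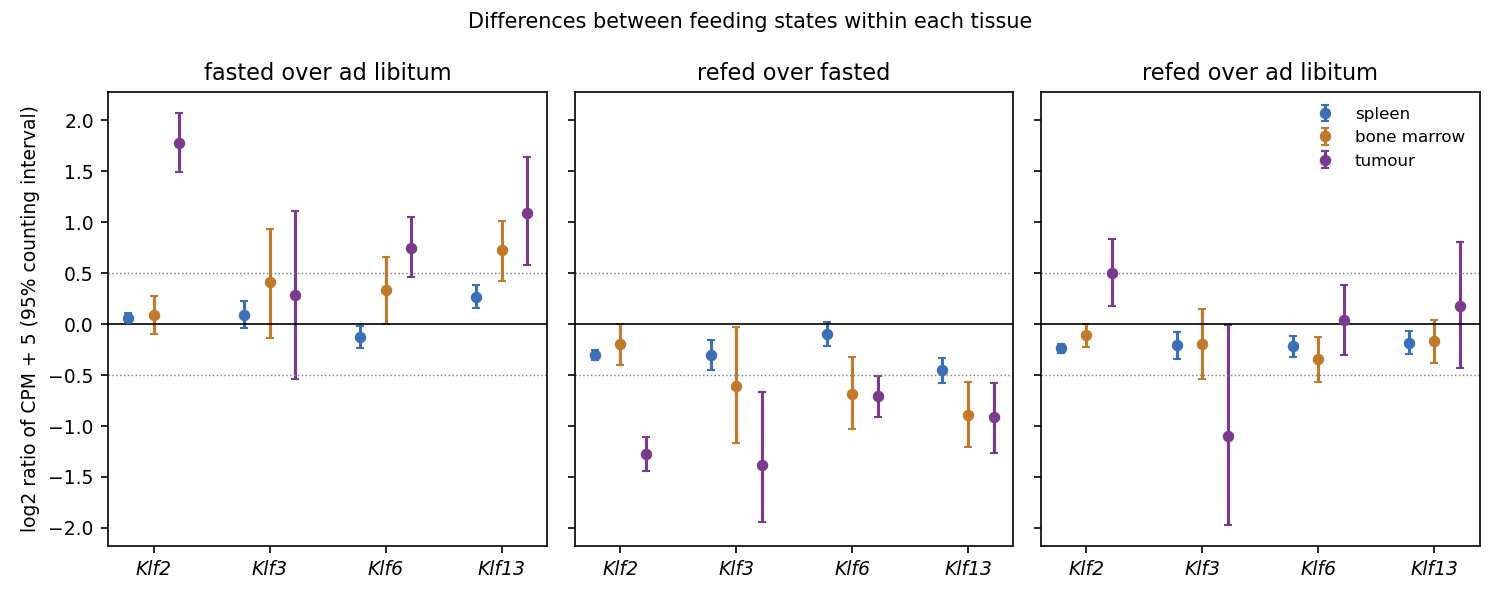
Log2 ratio of CPM plus 5 for each member in spleen, bone marrow and tumour, with 95% conditional binomial intervals. The panels run from ad libitum to fasted, from fasted to refed and from ad libitum to refed. The spleen ratios lie within the fold of 0.5, and the largest ratio is that of Klf2 in tumour, at 1.78 from ad libitum to fasted.

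The 12 deposited clusters spread these levels further. Klf2 ran from 87.8 CPM in cluster 11, 95.5% of whose cells came from tumour, to 1473 in cluster 4, 97.8% from spleen. Cluster 11 held the deepest cells, with a median of 26935.5 UMIs, and was also lowest for Klf3 (6.59 CPM) and Klf13 (43.0 CPM), while cluster 10, mostly bone marrow, was lowest for Klf6 (86.2 CPM). Klf6 was highest in cluster 0, at 410.2 CPM, 85.9% tumour, and in cluster 9, at 407.5 CPM, whose cells were the shallowest with a median of 1403 UMIs.

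Cluster 0 held as much Klf2 as clusters of spleen cells but little Klf3. Klf2 was at 1166 CPM there, near the 1102 of cluster 3, whereas Klf3 was at 30.1 against 111 CPM and Klf6 at 410.2 against 172 CPM. Klf13 was nearly level, at 158 and 159 CPM. Cluster 8, also made mostly of tumour cells, held 535 CPM of Klf2, 27.5 of Klf3, 271 of Klf6 and 101 of Klf13. Since the clusters were made from these same genes, the differences between them are a description.

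**Figure D4:**
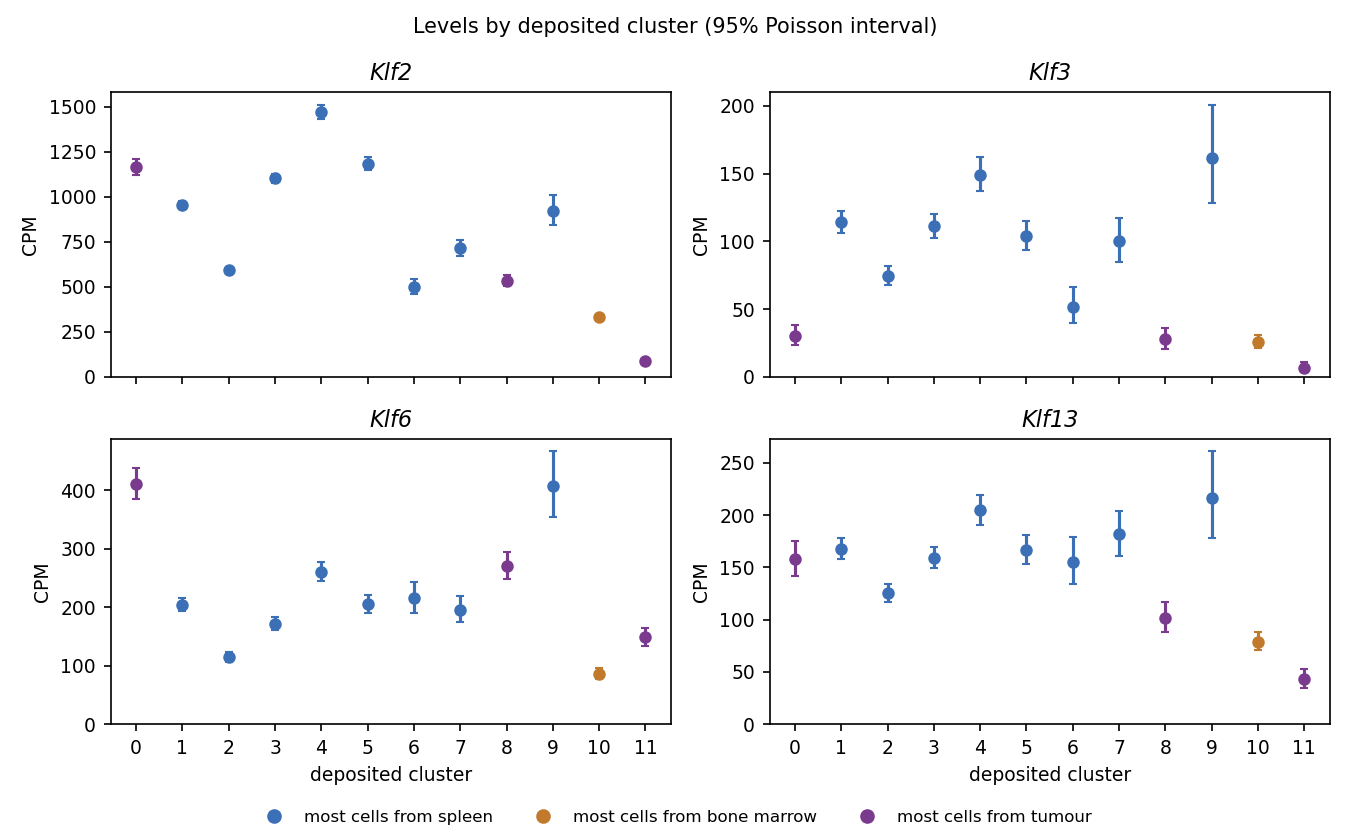
Level of each member in CPM, with 95% Poisson intervals, in the 12 deposited clusters, coloured by the tissue that gave most cells. Klf2 runs from 87.8 CPM in cluster 11 to 1473 in cluster 4, and the tumour clusters 0, 8 and 11 are the lowest in Klf3 together with cluster 10.

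Klf2 also varied with NK maturation within spleen. Cd27 marks less mature mouse NK cells and Itgam, which encodes CD11b, more mature ones. Klf2 was at 798 CPM in ad libitum spleen cells with a UMI of Cd27 alone, 999 in cells with both and 1252 in cells with Itgam alone. The same order was seen in naive cells (962, 1097 and 1174 CPM), fasted cells (949.7, 1195 and 1251 CPM) and refed cells (766, 859 and 1113 CPM). Cells with neither UMI held 1117, 1191, 1204 and 990 CPM of Klf2 in naive, ad libitum, fasted and refed spleen, more than the cells with both. Klf13 had this order in naive (154, 162 and 184 CPM), ad libitum (144, 152 and 175 CPM) and refed spleen (123, 151 and 173 CPM) but not in fasted spleen (201, 167 and 216 CPM). Whether a UMI is seen depends on depth, and the part of depth in these orders was not tested.

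Other members of the family were fewer in UMIs. Of the other 11 KLF genes in the matrix, 4 reached 20 CPM in any population: Klf4, Klf7, Klf9 and Klf10. Klf9, which glucocorticoids induce, was at 12.2, 24.4 and 9.80 CPM in ad libitum, fasted and refed spleen, at 6.20, 20.7 and 5.16 in bone marrow, and at 10.98, 25.4 and 14.97 in tumour. Its fasted over ad libitum ratios were 0.77 (0.48 to 1.06), 1.20 (0.41 to 1.93) and 0.93 (0.04 to 1.77). Klf10, a gene induced by TGF-beta, was at 67.0, 99.1 and 78.4 CPM in the same spleen populations, with a fasted over ad libitum ratio of 0.53 (0.37 to 0.69), and at 10.98, 41.0 and 28.3 CPM in tumour. In fasted against ad libitum cells 3 of these 4 genes were higher past the fold in spleen, 2 of 4 in bone marrow and 2 of 4 in tumour, against 1.38%, 14.7% and 14.4% of all measured genes, and 0 were lower in any. Klf7 was the one with a spleen ratio below 0, at -0.25. Apart from Klf10 in spleen, the genes counted as higher reached 20 CPM only in the fasted population. These were Klf4 (12.1 to 20.8 CPM) and Klf9 in spleen, Klf4 (17.3 to 32.7 CPM) and Klf9 in bone marrow, and Klf9 and Klf10 in tumour. Such a filter favours genes that are higher in fasted cells, so the counts cannot show a shared direction.

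**Figure D5:**
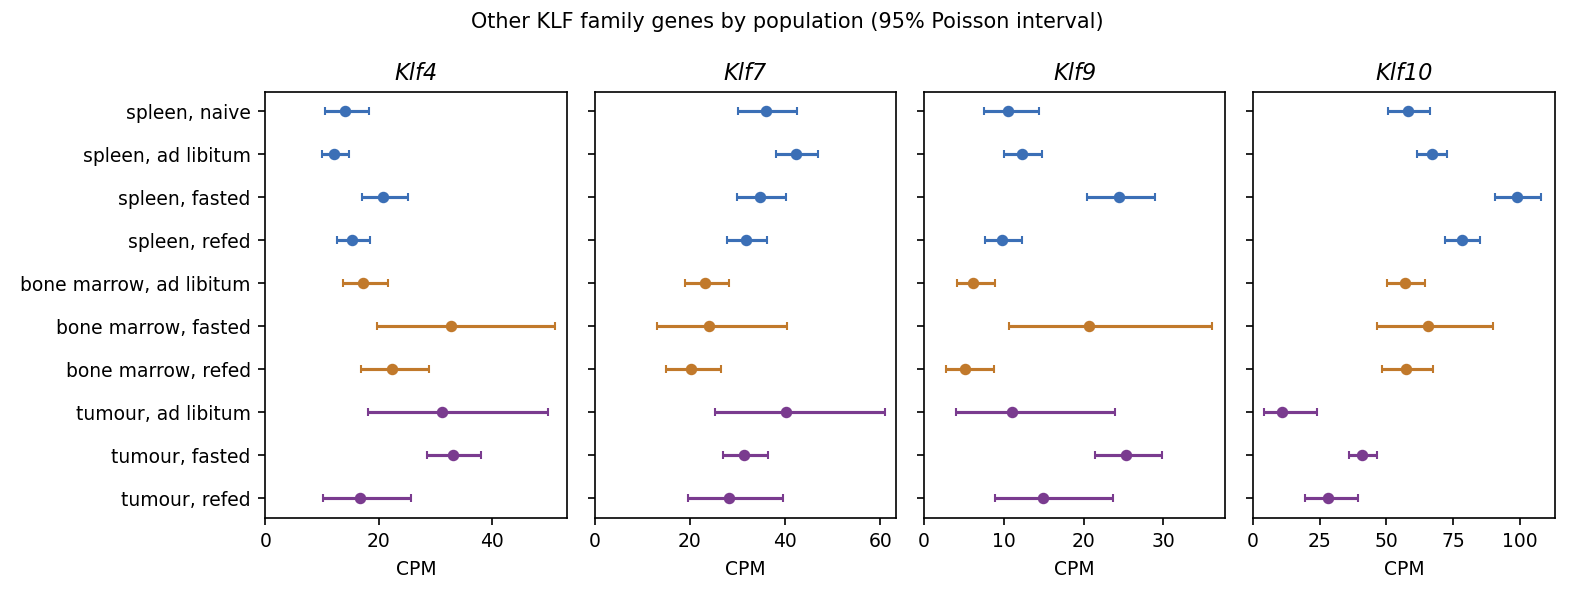
Level in CPM, with 95% Poisson intervals, of Klf4, Klf7, Klf9 and Klf10, the KLF genes outside the main 4 that reached 20 CPM, in each tissue and feeding state. Klf9 is highest in the fasted population of each tissue, at 24.4, 20.7 and 25.4 CPM in spleen, bone marrow and tumour.

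The related SP factors share the GC box with the KLFs. In fasted against ad libitum spleen 0 of 3 measured SP genes passed the fold, against 2.89% of all measured genes. In bone marrow it was also 0 of 3, against 30.8%. In tumour 2 of 3 were higher, Sp1 at 1.20 and Sp4 at 1.03, against 14.4% of all measured genes.

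Genes that act before and after the KLFs were read from lists. The list for the Klf2 route held genes of the MEK5, ERK5 and MEF2 route to Klf2, genes of KLF2 turnover, and Foxo1. Between fasted and ad libitum cells, 0 of 6 of its measured genes passed the fold in spleen. In bone marrow 1 of 6 passed (Wwp1 at 0.78, a ubiquitin ligase that binds KLF2). In tumour, 3 of 5 were higher, Mef2a at 0.67, Mef2d at 0.65 and Foxo1, also among the quiescence and FOXO-linked genes, at 1.04. Past the fold in either direction were 2.89%, 30.8% and 26.8% of all measured genes in spleen, bone marrow and tumour. Upward alone the shares were 1.38%, 14.7% and 14.4%, and downward 1.51%, 16.2% and 12.4%. Of the cofactors of KLF3 and KLF13, 0 of 7 passed in spleen. In bone marrow Sin3a was higher at 0.67 and Hdac2 lower at -1.02, and in tumour 1 of 6, Hdac1, was lower at -0.71.

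The median ratio of the quiescence and FOXO-linked genes was above that of Klf2 in spleen and bone marrow and below it in tumour. In fasted against ad libitum cells 5 of 13 measured were higher past the fold in spleen, 11 of 13 in bone marrow and 10 of 12 in tumour, with medians of 0.42, 0.76 and 0.99, beside 0.06, 0.09 and 1.78 for Klf2, and 0 were lower. Of all measured genes 1.38%, 14.7% and 14.4% were higher past the fold in these comparisons. Pik3ip1, an inhibitor of PI3 kinase, went from 17.3 to 78.7 CPM in spleen (1.91), and Tsc22d3, a gene that glucocorticoids induce, from 100.3 to 256 CPM (1.31). Dividing-cell genes were lower past the fold in 8 of 8 in spleen, 9 of 10 in bone marrow and 9 of 10 in tumour, against 1.51%, 16.2% and 12.4% of all measured genes.

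Trafficking receptors under KLF2 control gave no single direction. With fasting, 1 of 9 passed the fold upward in spleen (Cxcr4, a receptor that holds cells in bone marrow, 41.5 to 73.2 CPM, 0.75). S1pr1, the receptor for exit from tissue, was at 34.5 and 50.9 CPM, just inside the fold at 0.50. In bone marrow Cxcr4 was higher at 1.09 and Itgb7 lower at -0.57, of 9 measured. In tumour 3 of 6 were higher, Cxcr4 at 2.31, Cd69 at 0.83 and Itgb7 at 0.74. The shares of all measured genes are those given for the Klf2 route. Between fasted tumour and fasted spleen 6 of 9 were lower and 2 higher, against 28.5% and 12.6% of all measured genes, S1pr5, needed for NK cell exit, at -3.77, S1pr1 at -1.86, Cxcr4 at 2.17 and Cd69 at 1.77.

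Ccl5, the chemokine gene that KLF13 binds in T cells, was at 21478, 25338 and 17546 CPM in ad libitum, fasted and refed spleen. It was at 7997, 12627 and 6436 CPM in bone marrow and at 2608, 7271 and 2675 in tumour. As for Klf13, and also for Klf2 and Klf3, the fasted population was highest in each tissue. Over the 10 populations Pearson's r of log2 CPM with Ccl5 was 0.960 for Klf3, 0.954 for Klf13, 0.949 for Klf2 and 0.138 for Klf6. The likeness to Ccl5 was therefore not particular to Klf13. The fasted over ad libitum ratios of Ccl5 were 0.24, 0.66 and 1.48 in spleen, bone marrow and tumour, beside 0.27, 0.73 and 1.09 for Klf13.

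The genes whose levels were most like a member's were ranked by Pearson's r of log2 CPM over the 10 populations, among 3218 genes. These populations share 1 lane and, in groups, a tissue, and the r values are a description. For Klf2 they were Card19 (0.975), Zfp644 (0.969), Clcn4 (0.968) and Rnf115 (0.963). For Klf3 they were Atp2b1 (0.988), Itgam (0.987), Arhgap25 (0.987) and Lrif1 (0.986). For Klf6 they were Btg1 (0.980), Pim1 (0.961), Ptpre (0.958) and Dusp2 (0.952). For Klf13 they were Hcst (0.991), Wdr95 (0.991), Gimap4 (0.990) and Dpm1 (0.987). With the minimum level raised from 50 to 100 CPM, 2 of the 4 genes stayed for Klf2, Klf3 and Klf13 and 4 of 4 for Klf6.

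Among the members themselves r was 0.88 for Klf2 with Klf3, 0.85 for Klf2 with Klf13 and 0.87 for Klf3 with Klf13. With Klf6 it was 0.33 for Klf2, 0.03 for Klf3 and 0.05 for Klf13. Without the 3 tumour populations, over the remaining 7, these last 3 values were 0.92, 0.96 and 0.80, and the first 3 were 0.99, 0.60 and 0.70.

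The cells set aside as T cell-like held 490 CPM of Klf2, 96.6 of Klf3, 128 of Klf6 and 127 of Klf13. The monocyte or macrophage-like cells were lower in Klf2, at 268 CPM, and held 54.3 of Klf3, 290 of Klf6 and 226 of Klf13.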

How the data were processed

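The deposited values are whole-number UMI counts per gene and cell, from a matrix built with seqc per the labels' protocol. The submitters' processing notes name mm10, with no annotation. Of 13118 cells, 13085 carried a deposited hashtag call, 5606 of them called doublets, which were left out, and 7479 singlets. No further doublet caller was run. Repeated symbols (11) were summed. Clusters for removing other cell types were rebuilt with scanpy 1.11.5 and leidenalg 0.10.2 (2000 variable genes, 30 components, 15 neighbours, resolution 3 chosen after marker genes were seen), and the deposited clusters were used for the rest. Counts were summed per population. Levels are CPM with exact Poisson intervals, and ratios have a pseudocount of 5 CPM and conditional binomial intervals (scipy 1.17.1), checked on simulated data. TMM factors came from edgeR 4.0.16. The design allows no test.

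The members and gene lists were chosen with earlier results of these data known. Besides the members the text names the 4 genes most like each (at least 50 CPM in a population), KLF and SP genes at 20 CPM, up to 4 genes per list and comparison by size of ratio, and Ccl5; S1pr1 in spleen was added for its role. Alternatives changed the scaling, pseudocount, filters, weighting of cells, cells used and fold.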

Additional observations from a re-analysis of the deposited data

Results flagged for a closer look

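From ad libitum to fasted, the log2 ratio of Klf6 was -0.12 for spleen, 0.34 for bone marrow and 0.75 for tumour, so the direction in spleen was opposite to that in the other tissues. The difference between tissues was not tested, because each population is 1 sample. With equal weight for each cluster of at least 5 cells in both populations, the spleen value was 0.36. Among the 8 clusters with at least 30 cells in both spleen populations, Klf6 was lower in fasted cells in 5, with a median of -0.12. The tumour value with equal weights was -0.46, from 2 clusters holding 101 of 768 fasted and 24 of 43 ad libitum cells. The tumour value was also below 0, at -0.62, in cells of 3000 to 6000 UMIs. From ad libitum to refed, Klf2 was at -0.24 in spleen and -0.11 in bone marrow but at 0.5 in tumour, and this difference was not tested either. The tumour value was 0.05 (-0.89 to 1.12) in cells of 3000 to 6000 UMIs, with 5 ad libitum cells, and 0.04 with equal cluster weights.

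The cells called doublets entered no comparison and held all 4 members. Klf2 was at 734.9 CPM in them, Klf3 at 44.45, Klf6 at 233.2 and Klf13 at 128.1.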

How the results depend on the processing

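Of the 76 member ratios, 43 were past the fold, and 14 alternatives gave 586 values for them, of which 578 kept the direction and 527 also stayed past the fold. The 8 that turned were Klf6 from ad libitum to fasted tumour (-0.62 in cells of 3000 to 6000 UMIs, with 5 ad libitum cells, and -0.46 with equal cluster weights), Klf13 from ad libitum spleen to bone marrow (0.0477 with equal cluster weights), Klf2 from fasted spleen to tumour (0.18 in 3000 to 6000 UMIs), Klf13 from fasted bone marrow to tumour (0.0316 in 3000 to 6000 UMIs) and Klf2 from refed bone marrow to tumour (0.21 with the same weight per cell, 0.0813 with cells thinned to 1500 UMIs and 0.52 in 3000 to 6000 UMIs). The Klf6 value with equal cluster weights rests on 2 clusters with 24 of the 43 ad libitum tumour cells. The cause of the turns was not tested. TMM scaling raised all ratios of tumour over spleen or bone marrow by 0.16 to 0.33, which exceeds the -0.21 of Klf6 in ad libitum tumour over spleen (shift 0.23), and moved refed over fasted bone marrow by 0.12.

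The number of members past the fold stayed within 1.5 times in 247 of 271 values. With equal cluster weights it was 1 for fasted over ad libitum spleen, 1 for refed over fasted spleen, 2 for refed over ad libitum bone marrow and 2 for ad libitum bone marrow over spleen. With the same weight per cell it was 0 and 1 for fasted over ad libitum and refed over fasted bone marrow, and 2 and 2 for ad libitum bone marrow and fasted tumour over spleen. With thinned cells it was 0 and 0 for those 2 bone marrow comparisons and 2 for fasted tumour over spleen. With other cell types kept it was 1 for refed over fasted bone marrow. In cells of 3000 to 6000 UMIs it was 1 for refed over fasted and 2 for refed over ad libitum bone marrow, and 2 and 2 for ad libitum bone marrow and fasted tumour over spleen. With a pseudocount of 20 it was 1 for refed over ad libitum tumour. With a fold of 1 it was 0 and 0 for fasted over ad libitum and refed over fasted bone marrow, 2 and 1 for refed over fasted and refed over ad libitum tumour, 2 for ad libitum bone marrow over spleen, 1 for fasted tumour over spleen and 2 for refed tumour over bone marrow. The range of 3000 to 6000 UMIs, the removal of cells above percentile 95 of UMIs and of clusters with any foreign marker were added after seeing the data. No paired analysis was possible because each population is 1 sample. The depth of ad libitum tumour, 97 Klf2 and 8 Klf3 UMIs, limits every ratio to it.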
